A study of Mus musculus with 12 samples.

Results

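The genotype difference of Lpcat3 in mouse liver was examined over both feedings of the study at once. Livers of floxed mice (FLOX, genotype LPCAT3flox/flox) were compared with livers of mice that carried the floxed gene and a cre transgene (LKO, LPCAT3flox/flox-cre), on control feeding (NC) or on the NIAAA diet (ALD), a feeding model of alcoholic liver injury. All groups were labelled as male C57BL/6 mice of 8 to 10 weeks, so every animal carried floxed Lpcat3 and the genotypes differed in cre. Libraries were put in groups by their labels, and those with values here were 6 FLOX libraries (FLOX-NC 3, FLOX-ALD 3) and 5 LKO libraries (LKO-NC 2, LKO-ALD 3) of 12 samples in all; LKO-NC replicate 3 was labelled as well but is not analysed here. Neither the promoter of cre nor the exons that it removes could be read from the labels. There was no group with cre and without floxed Lpcat3, so effects of cre and of the loss of Lpcat3 cannot be told apart. The labels do not say whether replicates came from separate animals, so p-values reflect how these samples vary, and that variation may be technical.

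LPCAT3 is an enzyme of the endoplasmic reticulum that places polyunsaturated fatty acids, mainly linoleate and arachidonate, onto lysophospholipids, and so sets much of the unsaturation of membrane phosphatidylcholine. In liver its gene is a target of the oxysterol receptors LXR, and the enzyme is known for its part in lipoprotein secretion and lipogenesis. The title of the series places hepatic LPCAT3 in alcoholic liver injury and names NAMPT and PTLP beside it.

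mRNA was sequenced from whole liver, and a library held between 39.1 and 73.6 estimated counts, in units of 1e6. Levels below are counts per 1e6 after scaling by trimmed means of M-values (CPM), and differences are log2 fold changes of LKO over FLOX with their standard error (SE). Hepatocyte markers were abundant in every library, as the liver label states, with a summed level from 85090 to 171500 CPM over 14 genes. FLOX-ALD replicate 1 stood apart from its label: Xist, the RNA of the inactive X chromosome, was at 772 CPM against at most 2.95 CPM elsewhere. The Y-linked genes Uty, Kdm5d, Ddx3y and Eif2s3y were at 0 there in sum, against 135 to 227 CPM in the other libraries. Mitochondrially encoded transcripts took 12.11 to 13.04% of counts in FLOX and 25.3 and 15.4% in LKO on control feeding, against 13.1, 22.3 and 26.4% in FLOX and 13 to 14.9% in LKO on the NIAAA diet. This share was thus higher in LKO on control feeding and, in 2 of 3 libraries, higher in FLOX on the NIAAA diet. For some genes and lists, values are also given without FLOX-ALD replicate 1. All other values that use the FLOX-ALD group include this library.

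Over both feedings, 2 genes passed the threshold in the pooled genotype term, Lpcat3 itself and the long noncoding RNA gene Gm33699. They were 2 of 19014 genes tested (0.0105%) in an additive edgeR quasi-likelihood model with feeding as covariate, at a Benjamini-Hochberg adjusted p under 0.05. One was higher in LKO (0.00526%) and one was lower (0.00526%). Before adjustment, 999 genes (5.25%) had p under 0.05, 626 of them higher (3.29%) and 373 lower (1.96%) in LKO. DESeq2 called 43 of 18910 genes with an adjusted p (0.227%), 34 higher and 9 lower, and all 43 had the same sign on both feedings. A pooled term favours genes that shift alike on both feedings, so the shared sign partly follows from the call. Without FLOX-ALD replicate 1, edgeR called 7 genes, which were Lpcat3, Gm33699, Apoa4, its antisense gene Gm10680, Cd36, Cyp4a14 and Bmper.

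Lpcat3 (ENSMUSG00000004270, chromosome 6, 124663027 to 124704418, + strand, mm10) checked the genotype labels. On control feeding it was at 103, 87.1 and 101 CPM in FLOX against 29.2 and 37.2 CPM in LKO. On the NIAAA diet the levels were 37.9, 43.2 and 30.5 CPM in FLOX against 10.8, 15.4 and 9.80 CPM in LKO. Every LKO library lay below every FLOX library of its feeding, while LKO-NC and FLOX-ALD covered a similar range. The pooled term was −1.60 (SE 0.165, edgeR adjusted p = 0.00328), which left LKO at 33.1% of the FLOX level. The genotype differences on each feeding were nearly the same size, −1.55 (SE 0.255, edgeR adjusted p = 0.176) on control feeding and −1.63 (SE 0.222, adjusted p = 0.132) on the NIAAA diet, and Lpcat3 did not pass on either feeding alone. The interaction of genotype with feeding was −0.09 (SE 0.324, edgeR adjusted p = 0.954). Lpcat3 remained past the threshold when any 1 library was left out, from −1.71 to −1.53 with adjusted p from 0.00385 to 0.0279, and was −1.58 (0.00728) without FLOX-ALD replicate 1. The deposited counts assigned between 0 and 72.9% of Lpcat3 reads in FLOX, and between 0 and 88.8% in LKO, to a retained-intron transcript, so the genotypes were compared at the gene level only.

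The neighbourhood of Lpcat3 was examined because linked genes can differ with a targeted locus. Emg1, a ribosome biogenesis gene whose end overlaps Lpcat3 by 334 bases on the opposite strand, differed by −0.21 (SE 0.123, edgeR adjusted p = 0.989). Its levels were 30.3, 30.7 and 33.7 CPM in FLOX against 26.1 and 29.6 in LKO on control feeding, and 37.2, 37.6 and 35.6 against 33.3, 26.9 and 33.4 on the NIAAA diet. The LKO libraries lay below the FLOX libraries on each feeding. Whether counting used strand is unknown here, so reads shared with Lpcat3 cannot be told apart from Emg1 reads. Lpcat3 aside, genes whose genotypes did not overlap on both feedings numbered 1 within 2 Mb of Lpcat3 and 3 within 10 Mb, 0.391% and 1.17% of 256, against 0.347% and 1.20% of all genes tested.

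Gm33699 (ENSMUSG00000111147, chromosome 9, 61032212 to 61059116, + strand) is an annotated long intergenic noncoding RNA gene of no role known here. It was at 0.147, 0.310 and 0.465 CPM in FLOX against 6.43 and 2.94 in LKO on control feeding, and at 0.583, 0.152 and 0.103 against 3.07, 1.73 and 2.72 on the NIAAA diet. The LKO libraries lay far above the FLOX libraries on both feedings, at counts of 107 to 297 against 4 to 38. Its pooled term was 3.48 (SE 0.474, edgeR adjusted p = 0.0390). It was 4.08 (adjusted p = 0.00377) without FLOX-ALD replicate 1, and the call was lost when any 1 of the other 10 libraries was left out, with values from 3.16 to 3.62 and adjusted p from 0.0572 to 0.204. Gm39348, a noncoding gene on the opposite strand inside Gm33699, was at 0 in all FLOX-NC libraries, at 0.152 and 0.271 CPM in LKO-NC, at 0.0614, 0 and 0 in FLOX-ALD and at 0.266, 0.113 and 0.354 in LKO-ALD. Without the strand setting, reads of these overlapping genes cannot be told apart.

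The genes of 1 direction on both feedings were fewer than those of opposite directions. A gene was counted where every LKO library lay above, or every one below, every FLOX library on each feeding. This held for 257 genes (1.35%), 151 higher (0.794%) and 106 lower (0.557%) in LKO, whereas 461 genes (2.42%) did not overlap on both feedings but in opposite directions. On a single feeding, 5510 genes (29%) did not overlap on control feeding, with 2 LKO libraries, and 2397 (12.6%) on the NIAAA diet. The same sign of the fold change on both feedings was found for 8443 genes (44.4%), 3978 higher (20.9%) and 4465 lower (23.5%). Unadjusted p under 0.05 on both feedings held for 70 genes of the same sign (0.368%), 48 higher (0.252%) and 22 lower (0.116%), and for 84 of opposite sign (0.442%). Of the 43 genes called by DESeq2, 33 did not overlap on both feedings, 26 higher and 7 lower. These calls came from the same libraries, so the 2 measures are not independent.

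Fewer libraries leave fewer chances to overlap, so the count of genes without overlap is larger by construction when a library is left out. Without 1 library the 257 genes became 336 to 611. They were over 1.5 times as many without LKO-NC replicate 1 (573) or 2 (528), FLOX-ALD replicate 1 (596), 2 (611) or 3 (422), and LKO-ALD replicate 2 (599) or 3 (386). The 70 genes became 40 without FLOX-NC replicate 1 and 122, 110 and 115 when FLOX-ALD replicate 1 or 2, or LKO-ALD replicate 2, was left out. Without the 3 libraries over 20% mitochondrial counts, 2266 genes did not overlap. That setting leaves a single library of LKO-NC and a single FLOX-ALD library, replicate 1, whose Xist and Y-linked levels go against its label, so every value given for this setting rests on it.

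**Figure D1:**
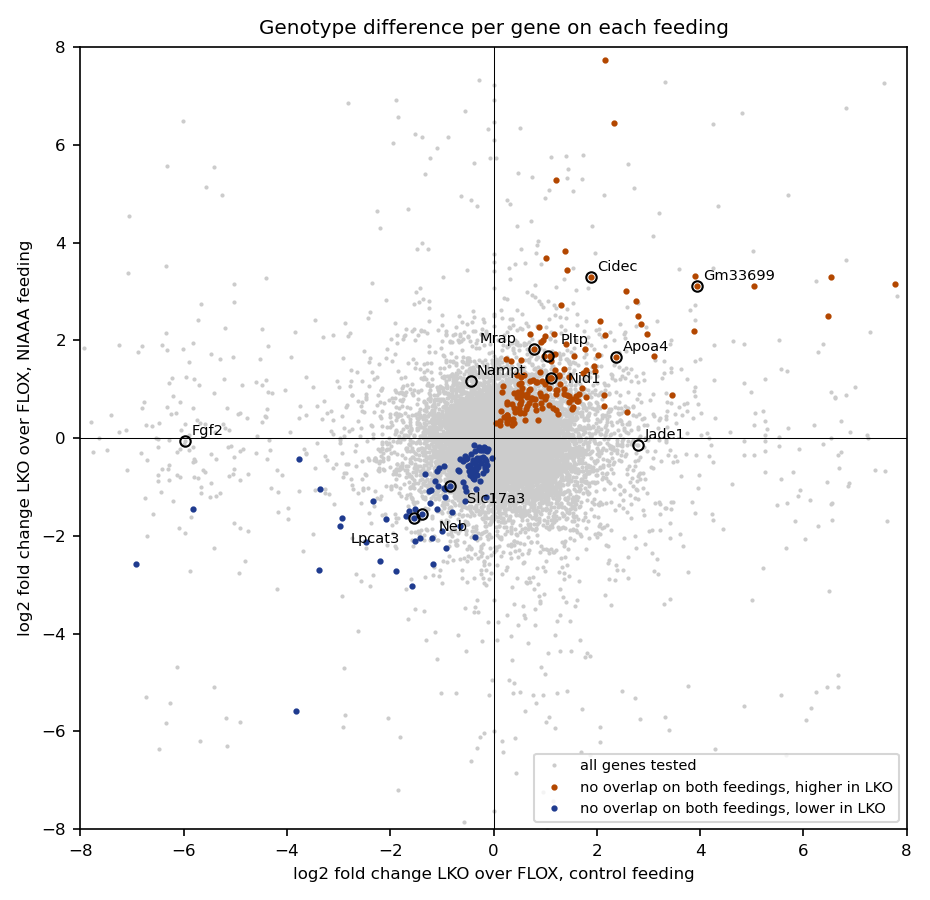
Genotype difference (log2 fold change, LKO over FLOX) of each gene tested on control feeding, on the horizontal axis, against that on the NIAAA diet, on the vertical axis; 24 genes lie beyond the axes, which end at 8. Coloured points are the 151 genes higher and the 106 lower in LKO without overlap on both feedings, and circles mark named genes, with Fgf2 and Jade1 near 0 on the NIAAA diet only.

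On each feeding alone, few genes passed. On control feeding edgeR called 2 genes (0.0105%), on the NIAAA diet 0 (0%, with 1531 at an unadjusted p under 0.05, or 8.05%, and 124 called by DESeq2), and for the interaction 1 (0.00526%). At an unadjusted p under 0.05 these were 1240 genes on control feeding (6.52%) and 1781 for the interaction (9.37%). Fgf2, a fibroblast growth factor, was at 4.67, 5.89 and 7.89 CPM in FLOX against 0.152 and 0.0417 CPM in LKO on control feeding, the latter counts of 7 and 2. On the NIAAA diet it was at 2.73, 3.61 and 6.59 CPM in FLOX against 3.70, 4.14 and 4.45 CPM in LKO, where the genotypes overlapped. Its genotype difference was −5.97 (SE 0.619, edgeR adjusted p = 0.00714) on control feeding and −0.07 (SE 0.384, adjusted p = 0.978) on the NIAAA diet, with an interaction of 5.90 (adjusted p = 0.0351). The additive model therefore gave an intermediate −1.85 (SE 1.06, adjusted p = 0.989) that describes neither feeding. Jade1, a chromatin-associated zinc finger gene, differed by 2.80 (SE 0.336, adjusted p = 0.0174) on control feeding and by −0.14 (SE 0.295, adjusted p = 0.933) on the NIAAA diet, and its interaction of −2.94 did not pass (adjusted p = 0.154).

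Among genes lower in LKO without overlap on both feedings, with an average log2 CPM of at least 1 and a symbol that is not a clone name, those of smallest p after Lpcat3 included Slc17a3, Neb, Cyp4f14 and Grb7, all short of the threshold. Slc17a3, an organic anion transporter whose human counterpart carries urate, was at 80.9, 106 and 102 CPM in FLOX against 57.0 and 50.4 in LKO on control feeding, and at 165, 170 and 219 against 95.4, 107 and 76.9 on the NIAAA diet. LKO lay below FLOX on each feeding, although the level itself was higher on the NIAAA diet in both genotypes. The pooled term was −0.92 (SE 0.158, edgeR adjusted p = 0.153), and DESeq2 called it (adjusted p = 2.05e-05). Cyp4f14, a cytochrome P450 that hydroxylates leukotrienes and fatty acids, was at 119, 116 and 103 CPM in FLOX against 35.8 and 70.4 in LKO on control feeding, and at 76.5, 90.7 and 120 against 66.0, 74.3 and 40.5 on the NIAAA diet. The gap on the NIAAA diet was narrow, 74.3 against 76.5 CPM at its edges, and the pooled term was −0.85 (SE 0.223, adjusted p = 0.714).

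Neb encodes nebulin, an actin-binding protein of muscle thin filaments. It was at 54.3, 42.2 and 39.2 CPM in FLOX against 20.3 and 14.4 in LKO on control feeding, and at 90.7, 25.4 and 25.3 against 15.6, 22.7 and 9.65 on the NIAAA diet. FLOX-ALD replicate 1 held the highest level of all libraries. In the pooled term it was at −1.48 (SE 0.349, edgeR adjusted p = 0.641) and −1.02 (adjusted p = 0.365) without that library. Grb7, an adaptor of receptor tyrosine kinases, was at 75.2 to 89.4 CPM in FLOX against 52.5 and 72.3 in LKO on control feeding and 52.8 to 59.9 against 23.8 to 40.7 on the NIAAA diet, a pooled difference of −0.62 (SE 0.169, adjusted p = 0.714).

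Among genes higher in LKO without overlap on both feedings, with the same limits on level and symbol, those of smallest p were Nid1, Apoa4, Col4a1, Col4a2, Enc1 and Mrap, and these were short of the threshold. The limits leave out Gm33699, which passed, and Gm10680 and the histone gene Hist1h2bq, whose p were smaller than that of Col4a1. Apoa4, an exchangeable apolipoprotein of triglyceride-rich particles, was at 775, 483 and 640 CPM in FLOX against 4070 and 2505 in LKO on control feeding, and at 740, 479 and 295 against 1631, 2379 and 757 on the NIAAA diet. All LKO libraries but LKO-ALD replicate 3 lay at more than 2 times the highest FLOX library, and that replicate lay just above FLOX-ALD replicate 1. The pooled term was 1.98 (SE 0.332, edgeR adjusted p = 0.153), or 3.95-fold. It passed without FLOX-ALD replicate 1 (2.21, adjusted p = 0.0398), without LKO-ALD replicate 3 (2.19, 0.0291) and in DESeq2 (1.98, 3.18e-06).

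The antisense gene Gm10680 overlaps Apoa4 by 839 bases on the opposite strand. It was at 2.26, 2.79 and 4.43 CPM in FLOX against 66.2 and 28.6 in LKO on control feeding, and at 5.34, 2.07 and 1.33 against 31.0, 50.5 and 6.83 on the NIAAA diet, so it ordered the libraries much as Apoa4 did. Its pooled term was 3.59 (SE 0.540, edgeR adjusted p = 0.153), 4.01 (adjusted p = 0.0333) without FLOX-ALD replicate 1 and 3.85 (0.00929) without LKO-ALD replicate 3. Since the strand setting is not known, reads of Apoa4 assigned to Gm10680 cannot be told apart from its own.

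Nid1 encodes nidogen, the basement membrane protein that links laminin to type IV collagen. It was at 5.85, 5.20 and 6.15 CPM in FLOX against 14.9 and 10.1 in LKO on control feeding, and at 9.14, 10.3 and 6.77 against 17.7, 15.4 and 28.1 on the NIAAA diet. The LKO libraries were well above the FLOX libraries on each feeding, with pooled 1.18 (SE 0.196, edgeR adjusted p = 0.153) and no detectable interaction (0.10, adjusted p = 0.955). Col4a1 and Col4a2 encode the alpha chains of the common type IV collagen of basement membranes. Col4a1 was at 13.6, 14.3 and 12.2 CPM in FLOX against 39.1 and 23.8 in LKO on control feeding, and at 25.9, 22.9 and 15.3 against 44.5, 29.9 and 52.6 on the NIAAA diet. Col4a2 was at 8.34, 10.5 and 7.53 CPM in FLOX against 14.8 and 13.4 in LKO on control feeding, and at 11.1, 12.5 and 10.5 against 21.7, 19.1 and 26.7 on the NIAAA diet. Both genes lay higher in every LKO library of a feeding, and LKO-ALD replicate 3 was highest for both. Their pooled terms were 1.10 (SE 0.196, edgeR adjusted p = 0.168) and 0.85 (SE 0.157, adjusted p = 0.202). DESeq2 called all of Nid1, Col4a1 and Col4a2 (adjusted p = 0.000119, 0.00119 and 0.000722).

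Col4a1 and Col4a2 start head to head on chromosome 8 and overlap by 22 bases, so their promoter windows share sequence, and both windows are shown because the pair lay higher together. The windows are RefSeq sequence of GRCm38.p6, from 250 bases before to 50 after each start. Capitals mark matches to the GC box GGGCGG and to the CCAAT box CCAAT on either strand. Col4a1 is on the − strand at chr8:11312777-11313076 and Col4a2 on the + strand at chr8:11312555-11312854.
Col4a1: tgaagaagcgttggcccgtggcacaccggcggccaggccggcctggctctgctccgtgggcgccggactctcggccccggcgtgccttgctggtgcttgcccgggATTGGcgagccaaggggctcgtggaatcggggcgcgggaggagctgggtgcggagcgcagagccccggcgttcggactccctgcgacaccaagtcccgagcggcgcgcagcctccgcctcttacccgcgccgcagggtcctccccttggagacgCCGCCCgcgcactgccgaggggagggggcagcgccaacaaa
Col4a2: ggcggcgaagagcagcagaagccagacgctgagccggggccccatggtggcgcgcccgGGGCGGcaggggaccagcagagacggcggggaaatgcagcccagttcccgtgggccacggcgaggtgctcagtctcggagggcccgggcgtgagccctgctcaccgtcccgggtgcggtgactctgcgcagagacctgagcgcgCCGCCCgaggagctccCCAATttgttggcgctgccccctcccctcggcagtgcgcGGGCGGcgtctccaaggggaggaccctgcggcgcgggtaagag
The Col4a1 window held 1 GC box and 1 CCAAT box, and the Col4a2 window held 3 GC boxes and 1 CCAAT box. GC boxes were found in 35.7% and CCAAT boxes in 37.4% of 32851 promoter windows of this length, and neither window held TATAAA, which 13.6% of windows hold.

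Enc1, an actin-binding protein of the kelch family, was at 3.13, 3.20 and 2.45 CPM in FLOX against 6.30 and 8.72 in LKO on control feeding, and at 2.79, 3.90 and 2.31 against 6.52, 4.79 and 12.8 on the NIAAA diet. Mrap, an accessory protein of melanocortin receptors, was at 32.6, 32.5 and 35.3 CPM in FLOX against 46.4 and 69.2 in LKO on control feeding, and at 44.6, 43.2 and 23.4 against 142, 81.3 and 168 on the NIAAA diet. Enc1 was at like levels in LKO on both feedings, while Mrap stood highest in LKO-ALD. The pooled terms were 1.39 (SE 0.262, edgeR adjusted p = 0.221) for Enc1 and 1.37 (SE 0.266, adjusted p = 0.228) for Mrap, and DESeq2 called both (0.00111 and 0.00118).

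**Figure D2:**
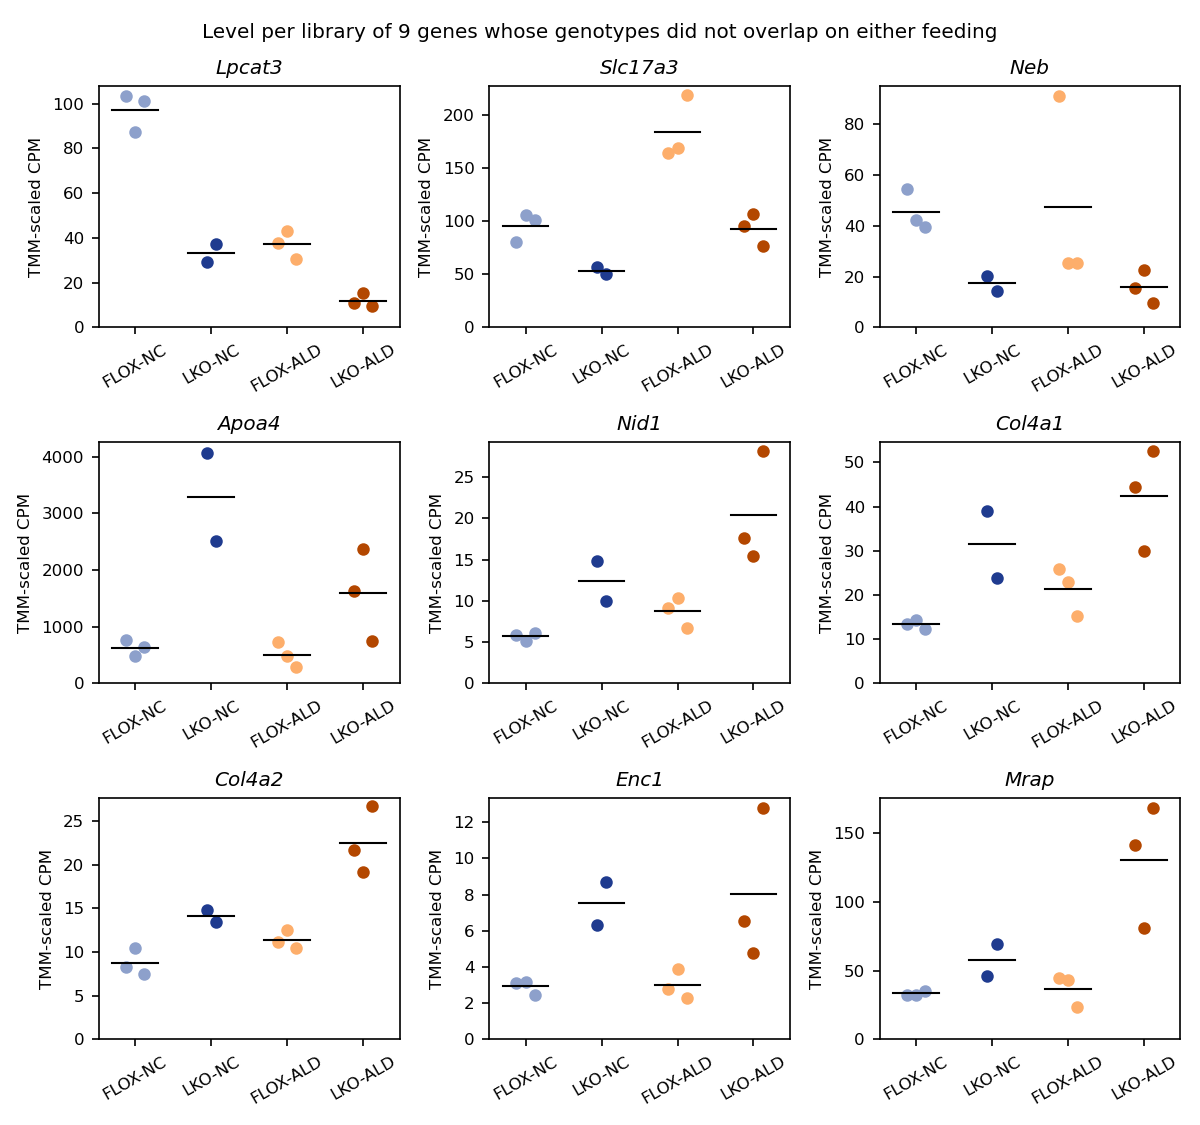
Level of 9 genes in each library (TMM-scaled CPM, axes from 0), by group; points are libraries and lines are group means. On each feeding all LKO points lie on 1 side of all FLOX points, below them for Lpcat3, Slc17a3 and Neb and above them for the other 6 genes.

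The other genes of the series title were Nampt and, reading PTLP as a respelling, Pltp. Nampt, whose enzyme limits the rate of NAD salvage, was at 105, 78.9 and 120 CPM in FLOX against 68.6 and 80.1 in LKO on control feeding, and at 34.8, 43.6 and 41.9 against 68.2, 72.5 and 128 on the NIAAA diet. The genotypes overlapped on control feeding and not on the NIAAA diet, with differences of opposite sign (−0.45, SE 0.293, and 1.16, SE 0.263). Pooled over feedings, the difference was 0.48 (SE 0.302, edgeR adjusted p = 0.998), from 0.21 without LKO-ALD replicate 3 to 0.72 without LKO-NC replicate 1. With opposite signs, this pooled value describes neither feeding. The Nampt interaction of 1.61 did not pass in edgeR (adjusted p = 0.498). DESeq2 called it (1.59, adjusted p = 0.0436), among 77 interactions that it called. Pltp, the phospholipid transfer protein of plasma and an LXR target, was at 21.6, 13.6 and 76.0 CPM in FLOX against 69.2 and 85.0 in LKO on control feeding, and at 12.2, 6.73 and 12.2 against 39.6, 23.1 and 36.2 on the NIAAA diet. FLOX-NC replicate 3 alone lay among the LKO-NC libraries. The pooled term was 1.40 (SE 0.399, adjusted p = 0.730), and without FLOX-NC replicate 3 it passed at 1.85 (adjusted p = 0.0359).

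**Figure D3:**
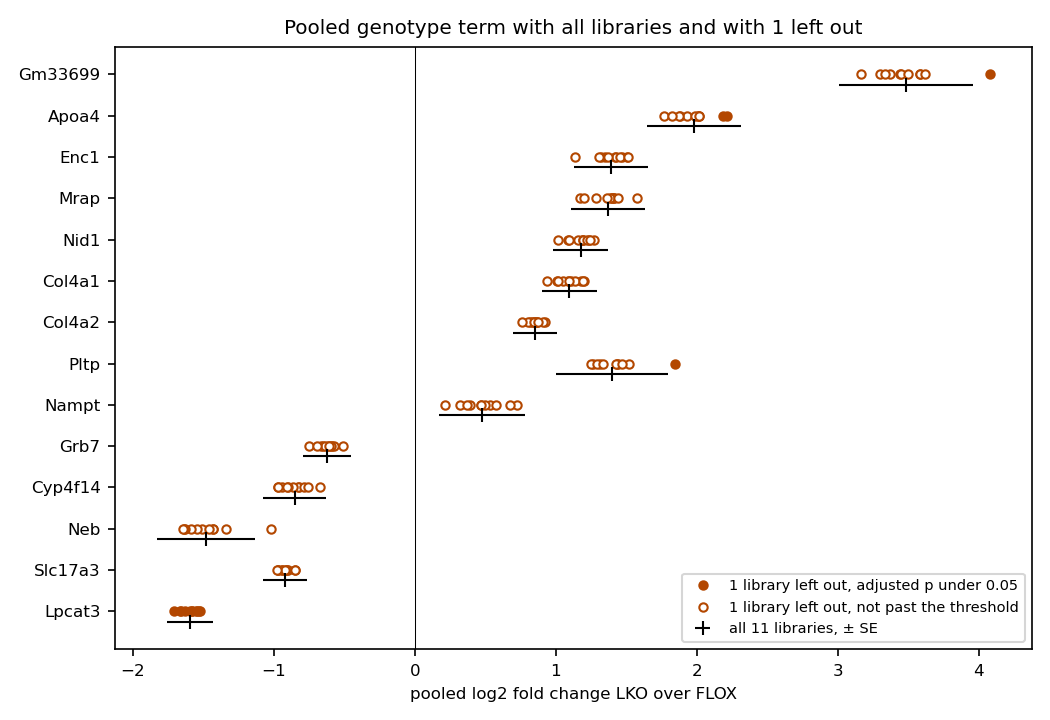
Pooled genotype term (log2 fold change, LKO over FLOX) of 14 genes: bars give the value ± SE over all 11 libraries, circles the value with 1 library left out, filled where the adjusted p was under 0.05. Lpcat3 is filled in all 11 cases, Apoa4 in 2, Gm33699 and Pltp in 1 each, and no gene changes side.

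The pooled differences of the extracellular matrix list leaned to LKO, while its summed level overlapped between genotypes on both feedings. That level was 984 to 1241 CPM in FLOX and 1034 to 1244 in LKO on control feeding. On the NIAAA diet the list was at 874 to 1654 CPM in FLOX and 1406 to 2593 in LKO. Of its 23 tested genes, 23 had a positive pooled difference, against 9187 of 19014 genes tested. The same positive sign on both feedings was found for 14 of them, against 3978 of all genes (20.9%). None passed in edgeR, and 7 were higher at an unadjusted p under 0.05, against 626 of all genes (3.29%). Of the members of highest level, Fn1, fibronectin, differed by 0.31 (SE 0.289) and overlapped. The median was 0.56, against −0.01 over all genes, 0.996 on control feeding and 0.30 on the NIAAA diet. It was 0.48 without FLOX-ALD replicate 1, 0.87 without FLOX-ALD replicate 2 and 0.90 without the libraries over 20% mitochondrial counts. Beside the collagen IV genes, the members with unadjusted p under 0.05 included Col1a1 (0.90, SE 0.338), the matricellular genes Ccn2 (1.17, SE 0.455) and Sparc (0.41, SE 0.163), and Col6a2 (0.65, SE 0.293).

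Markers of the cells that make this matrix stood beside it. Decorin (Dcn, 0.35, SE 0.244) and Rgs5 (0.49, SE 0.233) led the stellate list in level, and Stab1 (0.25, SE 0.204) and Fcgr2b (0.10, SE 0.200) the endothelial list. All 14 stellate cell markers had a positive pooled difference (median 0.47, and 12 of 14 with 0.35 without FLOX-ALD replicate 1), and collagen genes, Lox and Timp1 stand on both lists. Their summed level ran from 117 to 172 CPM in FLOX and 216 to 270 in LKO on control feeding, and from 136 to 362 and 214 to 301 on the NIAAA diet, apart on control feeding and overlapping on the NIAAA diet. Of 12 sinusoidal endothelial markers, 11 were positive (median 0.31, and 0.20 without LKO-NC replicate 2), with summed levels of 221 to 248 CPM in FLOX and 293 to 330 in LKO on control feeding, and 250 to 389 and 296 to 454 on the NIAAA diet. Their part in the matrix values was not tested. In whole liver, more cells of a type and more RNA per cell cannot be told apart. Lyve1, the hyaluronan receptor of sinusoidal endothelium, was at 4.44, 3.37 and 6.78 CPM in FLOX against 10.0 and 10.5 in LKO on control feeding, and at 6.31, 17.7 and 11.9 against 24.3, 19.2 and 28.9 on the NIAAA diet. It did not overlap on either feeding (pooled 1.04, SE 0.2505, edgeR adjusted p = 0.641).

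Immune lists differed in direction from each other, and some of them also between the feedings. All 10 tested neutrophil markers were positive in the pooled term, with a median of 2.04 that was 3.56 on control feeding and 0.66 on the NIAAA diet. Only 5 of the 10 had a mean over 1 CPM, and without LKO-NC replicate 1 the list held 7 positive genes and a median of 0.83. Without the libraries over 20% mitochondrial counts, 6 of the 10 were positive, with a median of 0.17. The 12 monocyte markers were all positive in the pooled term (median 0.66), and 8 were without LKO-NC replicate 1 (median 0.15). Only 4 of the 12 had a mean over 1 CPM. Their median was 1.84 on control feeding and −0.24 on the NIAAA diet. Of 26 acute phase genes, 24 were positive in the pooled term (median 0.44). Their median was 0.65 on control feeding and 0.40 on the NIAAA diet. On both feedings 17 of the 26 were positive, against 20.9% of all genes. Without FLOX-ALD replicate 1, 25 were positive in the pooled term (median 1.09). That library held the highest summed level of these genes, 140200 CPM against 15030 and 52790 CPM in the other FLOX-ALD libraries. Where it was the only FLOX-ALD library, without those over 20% mitochondrial counts, 11 were positive (median −0.07). In the pooled term, other lists leaned the other way or neither way. Positive were 1 of 11 B and plasma cell markers (median −0.34) and 5 of 11 T and NK cell markers (−0.10). So were 6 of 15 Kupffer cell and macrophage markers (−0.01) and 11 of 29 interferon-stimulated genes (−0.06). For each of these lists the median was positive on control feeding and negative on the NIAAA diet, so the pooled value describes neither feeding. In that order of feedings, the B and plasma cell list was at 0.65 and −1.17, and the T and NK cell list at 0.49 and −0.33. The Kupffer cell and macrophage list was at 0.77 and −0.81, and the interferon-stimulated list at 0.27 and −0.32. No member of these lists passed in edgeR.

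**Figure D4:**
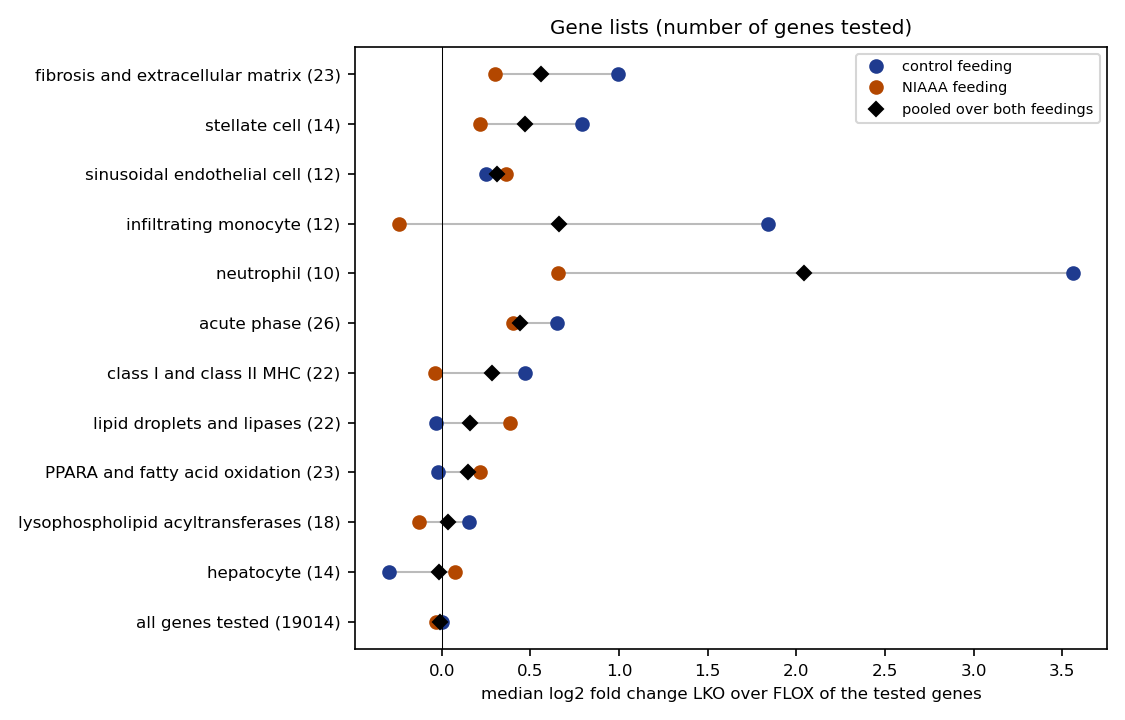
Median log2 fold change (LKO over FLOX) of the tested genes of 11 lists and of all genes on control feeding, on the NIAAA diet (circles) and pooled (diamonds). The matrix, stellate, endothelial, neutrophil and acute phase lists are right of 0 on both feedings. The monocyte list is at 1.84 and −0.24, and all genes are at 0 and −0.03.

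Lipid genes were mixed, with a few members apart on both feedings. The lysophospholipid acyltransferase list had 1 of 18 members past the threshold, Lpcat3, and 10 positive. Lpcat1, Lpcat2 and Lpcat4, which share the LPCAT name, differed by 0.20 (SE 0.322), 0.37 (SE 0.337) and −0.13 (SE 0.322) at group means of at most 3.36 CPM. Mboat7, which prefers arachidonate for phosphatidylinositol, differed by −0.27 (SE 0.157). Gpat3, a glycerol phosphate acyltransferase, did not overlap, at 4.64, 6.03 and 3.10 CPM in FLOX against 9.98 and 6.30 in LKO on control feeding, and at 5.98, 9.11 and 2.77 against 17.3, 12.2 and 9.97 on the NIAAA diet (pooled 1.004, SE 0.294, edgeR adjusted p = 0.730). Of 18 LXR targets, 9 were positive and Lpcat3 alone passed, and of 13 genes of polyunsaturated fatty acid synthesis and activation, 6 were positive and none passed. Elovl5, an elongase of polyunsaturated fatty acids, was at 540, 357 and 598 CPM in FLOX against 655 and 1014 in LKO on control feeding, and at 274, 154 and 168 against 638, 776 and 271 on the NIAAA diet, overlapping on the NIAAA diet (pooled 1.17, SE 0.303, adjusted p = 0.714).

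Of 22 lipid droplet genes and lipases, 14 were positive and none passed (median 0.16, and −0.03 with 10 positive without FLOX-ALD replicate 3). Cidec, a droplet protein that favours large droplets, lay highest in LKO. It was at 4.03, 3.72 and 3.36 CPM in FLOX against 20.6 and 6.67 in LKO on control feeding, and at 2.15, 5.74 and 1.74 against 57.6, 22.5 and 14.7 on the NIAAA diet. Every LKO library was above every FLOX library of either feeding, with a pooled term of 2.69 (SE 0.509, edgeR adjusted p = 0.270, DESeq2 adjusted p = 4.17e-06).

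The deposited transcript counts split Cidec mainly between an upstream and a downstream start. Transcript ENSMUST00000113089, from the upstream start, was given 149, 111 and 125 counts in FLOX against 878 and 265 in LKO on control feeding, and 84, 221 and 8 against 2512, 1203 and 969 on the NIAAA diet. Transcript ENSMUST00000113091, from the downstream start, had 76, 49 and 35 counts in FLOX against 63 and 44 in LKO on control feeding, and 42, 73 and 48 against 292, 175 and 100 on the NIAAA diet. In CPM the upstream transcript did not overlap between genotypes on either feeding and the downstream transcript overlapped on both. On the NIAAA diet that overlap was narrow: the downstream transcript was at 0.644, 1.39 and 1.23 CPM in FLOX against 5.97, 2.83 and 1.36 CPM in LKO. The upstream transcript took 11.8 to 75.3% of Cidec counts in FLOX and 82.8 to 92.1% in LKO. No test was run on transcripts, and the assignment of reads between them is an estimate.

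**Figure D5:**
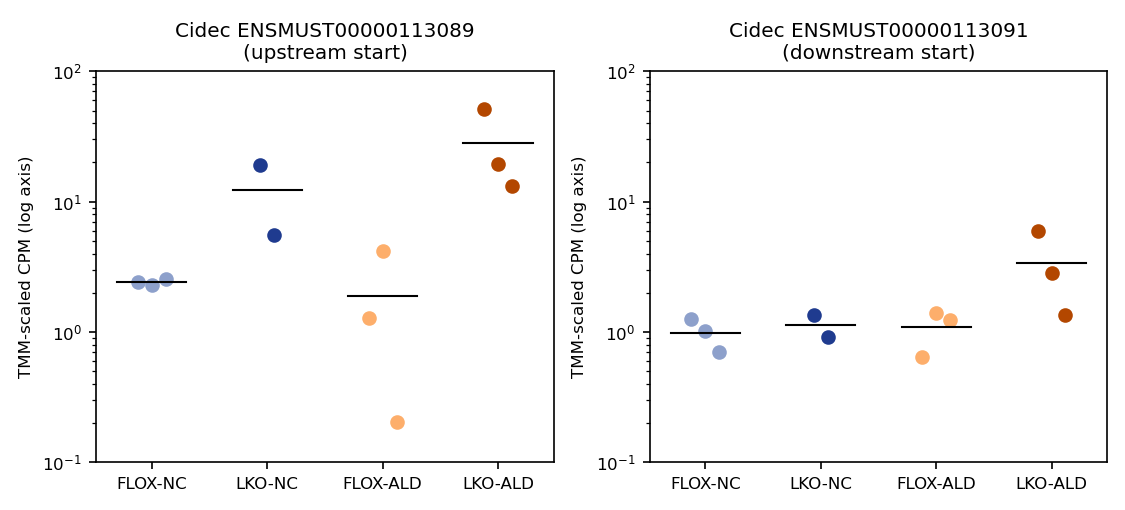
Level of the Cidec transcripts of the upstream start (left) and the downstream start (right) in each library (TMM-scaled CPM, log axis), with group means as lines. The upstream transcript is at 0.205 to 4.20 CPM in FLOX and 5.53 to 51.4 CPM in LKO, and the downstream one at 0.644 to 1.39 and 0.917 to 5.97 CPM.

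The promoter windows of the upstream and the downstream start are shown, since the deposited counts split Cidec mainly between them. They are RefSeq sequence of GRCm38.p6 on the − strand of chromosome 6, the upstream one at chr6:113435711-113436010 and the downstream one at chr6:113434715-113435014, whose start sites, 113435760 and 113434764, match those of the transcripts. Capitals mark the AP-1 motif TGANTCA, searched on both strands.
Cidec upstream: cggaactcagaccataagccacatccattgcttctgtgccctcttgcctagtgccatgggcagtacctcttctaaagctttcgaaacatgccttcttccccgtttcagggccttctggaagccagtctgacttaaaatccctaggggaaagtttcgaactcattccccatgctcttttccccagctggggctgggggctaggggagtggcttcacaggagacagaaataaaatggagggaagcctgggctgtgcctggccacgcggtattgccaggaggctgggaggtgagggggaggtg
Cidec downstream: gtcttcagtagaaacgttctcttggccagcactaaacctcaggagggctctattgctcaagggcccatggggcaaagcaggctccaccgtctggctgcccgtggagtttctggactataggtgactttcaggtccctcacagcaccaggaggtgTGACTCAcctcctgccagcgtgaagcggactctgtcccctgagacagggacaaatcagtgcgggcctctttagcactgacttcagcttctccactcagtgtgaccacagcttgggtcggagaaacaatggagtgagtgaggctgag
AP-1 motifs lie in 7.81% of all promoter windows. The downstream window held 1, at 96 bases before the start, and the upstream window held none of the motifs searched.

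Of 23 PPARA targets and genes of fatty acid oxidation, 15 were positive (median 0.15, and −0.01 with 11 positive without FLOX-ALD replicate 3). Fabp1, the liver fatty acid carrier, differed by 0.04 (SE 0.247). Fgf21, a liver hormone of fasting, was at 7.03, 5.04 and 5.46 CPM in FLOX against 13.1 and 8.36 in LKO on control feeding, and at 3.65, 5.08 and 4.23 against 8.32, 10.6 and 43.3 on the NIAAA diet. It did not overlap on either feeding (pooled 1.67, SE 0.444, edgeR adjusted p = 0.714), and LKO-ALD replicate 3 decided its size, 1.01 without it. Cd36, a fatty acid receptor, and Cyp4a14, a fatty acid hydroxylase, differed by 1.51 (SE 0.535, adjusted p = 0.845) and 1.38 (SE 0.511, adjusted p = 0.849). Both passed without FLOX-ALD replicate 1, at 2.28 (adjusted p = 0.0156) and 2.14 (0.0458), and Cyp4a14 was 0.80 (0.972) without LKO-NC replicate 2. FLOX-ALD replicate 1 held 138 CPM of Cd36 and 691 CPM of Cyp4a14 against at most 33.2 and 127 CPM in the other FLOX-ALD libraries. Cyp4a14 is one of the female-biased genes listed, and their median of −4.24 was −0.13 without FLOX-ALD replicate 1.

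Other genes apart on both feedings, chosen after their values were seen, came from several classes. Higher in LKO were the aryl hydrocarbon receptor Ahr (0.78, SE 0.151, edgeR adjusted p = 0.228), the tetraspanin Cd63 (1.45, SE 0.292, 0.266), the membrane protein gene Tm4sf4 (0.73, SE 0.145, 0.245), the glypican Gpc1 (1.55, SE 0.352, 0.505) and the immediate-early genes Jun (1.15, SE 0.280, 0.641) and Btg2 (1.69, SE 0.444, 0.714). Ahr was at 27.4, 27.3 and 20.4 CPM in FLOX against 44.0 and 38.6 in LKO on control feeding, and at 41.0, 26.0 and 37.9 against 63.4, 60.9 and 60.8 on the NIAAA diet. Jun and Btg2 were 0.76 and 1.05 without LKO-ALD replicate 3. Lower in LKO was the glucose-sensing transcription factor gene Mlxipl (−0.84, SE 0.242, 0.730). Mlxipl was at 776, 645 and 893 CPM in FLOX against 466 and 592 in LKO on control feeding, and at 349, 482 and 785 against 283, 292 and 188 on the NIAAA diet. FLOX-ALD replicate 1 was the lowest of its group, and the difference was −0.92 without it and −0.42 with it as the only FLOX-ALD library, without those over 20% mitochondrial counts. The 14 hepatocyte markers had 7 positive and 7 negative members and a median of −0.02.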

How the data were processed

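Liver mRNA libraries of 11 samples were used. The labels' protocols name a KAPA stranded kit for mRNA capture and a SMARTER kit for the libraries. Genome build mm10 and the tools HISAT2, StringTie, cutadapt, FastQC and edgeR come from the submitters' processing notes. Estimated counts per gene and per transcript were used as the authors deposited them, already whole, and the strand setting is not given in the sources used here. The authors also deposited FPKM values, used as an alternative on log2(FPKM + 1) and log2(FPKM + 0.1). The design had assumed read counts of 12 libraries, and the same test was used. Of 55401 genes, 22731 were at 0 in all libraries and 19014 passed filterByExpr (minimum count 10, total 15). edgeR 4.0.16 (robust quasi-likelihood, TMM) fitted feeding and genotype with 8 residual and 5.69 prior degrees of freedom, at a common biological coefficient of variation of 44.1%, and 1 mean per group (7) for single feedings and the interaction. The SE is the absolute log2 fold change over the square root of F. Adjustment was by Benjamini-Hochberg over all genes tested. DESeq2 1.42.0, limma 3.58.1, R 4.3.3 and matplotlib 3.10.9 were also used, and the pooled edgeR fit was run on simulated counts. It called 14 and 11 of 50 genes simulated at 2-fold and 0.5-fold, and 30 and 23 of 50 at 4-fold and 0.25-fold. Among 18814 genes simulated without a difference it called 3. Many simulated differences were thus not called. Positions are mm10, with 55141 identifiers found in GENCODE M21. Named genes were Lpcat3, Nampt, Pltp, up to 6 per direction of smallest p with no overlap on both feedings, an average log2 CPM no lower than 1 and a symbol other than a clone name, list members past the threshold and the 2 members of highest CPM per list, and genes past the interaction threshold. Others were named after their values were seen: Gm33699, Gm10680, Gm39348, Emg1, Jade1, Cidec, Gpat3, Elovl5, Lyve1, Fgf21, Cd36, Cyp4a14, Bmper and list members of unadjusted p under 0.05. The members and lists were chosen with earlier results of these data known. Libraries of a group all differed beyond counting error, with chi-square over its degrees of freedom from 39.3 to 832. Some genes that these rules name are not reported here.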

Additional observations from a re-analysis of the deposited data

Results flagged for a closer look

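For Fgf2 the genotype difference itself differed between the feedings, with an interaction of 5.90 on the log2 scale (edgeR adjusted p = 0.0351). It was −5.97 on control feeding and −0.07 on the NIAAA diet. The interaction did not pass with upper-quartile scaling (5.77, adjusted p = 0.0661), with genes of at least 1 CPM in 3 libraries (5.82, 0.0526), or without any 1 of FLOX-NC replicates 1, 2 and 3 and LKO-ALD replicates 1 and 2.

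Clec4f, a lectin receptor of Kupffer cells, lay on opposite sides on the feedings. It was at 73.1, 78.0 and 51.9 CPM in FLOX against 136 and 78.3 in LKO on control feeding, and at 87.0, 43.9 and 42.4 against 17.1, 29.1 and 37.5 on the NIAAA diet. All LKO libraries were above FLOX on control feeding, narrowly for 1 of them (78.3 against 78.0 CPM), and below FLOX on the NIAAA diet. The interaction of −1.71 did not pass (edgeR adjusted p = 0.498).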

How the results depend on the processing

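Lpcat3 was past the threshold in 22 of 25 alternatives, from −1.715 to −1.17. It did not pass on log2(FPKM + 1) (−1.17, adjusted p = 0.196), on log2(FPKM + 0.1) (−1.25, 0.144) or without feeding as covariate (−1.715, 0.975), and the cause was not tested. Gm33699 passed in 10 of the 25 alternatives. With the mitochondrial share as a further covariate, Lpcat3 and the female-biased gene Cyp3a41a were called and Gm33699 was not. On log2(FPKM + 1) the gene called was Hist1h2bq. The pooled term called 2 genes, and 6 with no filter on low counts, 1 with genes of at least 1 CPM in 3 libraries, 43 in DESeq2, 1 on log2(FPKM + 1), 0 without feeding, 7 without the libraries over 20% mitochondrial counts (an alternative chosen after seeing the data, with FLOX-ALD replicate 1 alone in its group) and 1 to 7 with 1 library left out. With those libraries left out, 2266 genes did not overlap on both feedings, against 257, and 336 to 611 with 1 library left out. Genes of unadjusted p under 0.05 and 1 sign on both feedings, 70, became 40 to 122. Calls on control feeding, 2, became 7 with no filter, 60 in DESeq2, 8 without the libraries over 20% and 1 to 18 with 1 left out. Calls on the NIAAA diet, 0, became 3, 124, 69 and 0 to 7 in the same order. Interaction calls, 1, became 5, 77, 53 and 0 to 12, and 0 with upper-quartile factors and with the 1 CPM filter. The 12 genes named by the rule on overlap kept their direction in all 25 alternatives. They were chosen with all LKO libraries on 1 side of FLOX on both feedings. Their kept direction therefore largely follows from the choice and is no separate check. A library left out of LKO-NC leaves 1, which is assumed to vary like the other groups. No paired analysis was possible because the replicate numbers were given in accession order and pair no samples. Depth limits genes of few counts such as Fgf2 in LKO-NC and Gm39348.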
